A study of Caenorhabditis elegans with 21 samples.

Results

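F-box genes named fbxa, fbxb or fbxc were followed in adult Caenorhabditis elegans of 7 genotypes that differ in insulin signalling and in the isoforms of its FoxO factor. They were taken as every locus of the deposited count table with a gene name made of fbxa, fbxb or fbxc and a number. This gave 325 loci of 33886, which hold 352 such genes. By subfamily, 171 loci carry fbxa genes (192 genes), 105 carry fbxb genes (110 genes) and 49 carry fbxc genes (50 genes).

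F-box proteins are the substrate-binding subunits of SCF ubiquitin ligases, in which a Skp1-like adaptor joins the F-box protein to a cullin scaffold and a RING protein. The F-box protein chooses which proteins receive ubiquitin, and many of them are then degraded by the proteasome. Nematodes carry an unusually expanded set of F-box genes, most of them without a known substrate, so no role is given below for a single fbxa, fbxb or fbxc gene unless stated. In C. elegans the cullin CUL-6 and the Skp1-related proteins SKR-3, SKR-4 and SKR-5 act with the F-box proteins FBXA-75 and FBXA-158 in the intracellular pathogen response.

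The worm's insulin/IGF-1-like receptor is the product of daf-2, and the e1370 allele lowers its activity, which lets the FoxO transcription factor DAF-16 act. The genotypes were daf-16(mu86);daf-2(e1370), described as a daf-16 null, daf-16(mg54);daf-2(e1370), a mutation of the a and f isoforms, daf-16(tm5030);daf-2(e1370) and daf-16(tm5032);daf-2(e1370), which are independent daf-16a mutations, daf-16(tm6659);daf-2(e1370), a daf-16f mutation, then daf-2(e1370) with wild-type daf-16, and N2 wild-type. They are called mu86, mg54, tm5030, tm5032, tm6659, daf-2 and N2 here, with 3 libraries each. Whole day 1 adults were used, raised at 15 °C until L4 and moved to 20 °C for the last 20 to 24 hours, and each mutation is present in all tissues. In whole animals, fewer cells of a type and less RNA per cell cannot be told apart.

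Libraries held 30384772 to 47170645 counts, and the F-box loci held 0.174% to 0.224% of the counts at named loci. This share includes loci that merge F-box genes with other genes. The daf-16 locus read 154 ± 11.7 counts scaled to the library size (CPM) in mu86, 94.2 ± 0.212 in mg54, 144 ± 11.1 in tm5030, 165 ± 13.7 in tm5032, 57.7 ± 11.0 in tm6659, 163 ± 18.6 in daf-2 and 187 ± 5.06 in N2 (SD, n = 3 each), so this count does not check the mu86 label. The libraries numbered 2 of mu86, mg54 and, less strongly, N2 stood apart in fbxb genes, as described with that subfamily. The F-box counts are given with and without the libraries numbered 2. Summed CPM of 24 sperm genes ran from 792 to 2228 in mu86, 696 to 2058 in mg54, 646 to 1356 in daf-2 and 322 to 795 in N2. Summed CPM of 6 intestinal genes ran from 2098 to 3346 in mu86, 2313 to 3670 in mg54, 1801 to 2086 in daf-2 and 1679 to 2350 in N2. The part of these tissue differences in the F-box results was not tested.

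Most F-box genes were weakly expressed in these animals. Of the 325 loci, 25 had no count in any library, and 180 (55.4%) passed the filter on low counts, beside 36% of all named loci. The filter kept 106 of the fbxa loci (62.0%), 48 of the fbxb loci (45.7%) and 26 of the fbxc loci (53.1%). Levels of different genes are compared in FPKM, which is scaled for transcript length. The median over the loci that passed was 2.53 FPKM for fbxa, 0.376 for fbxb and 1.03 for fbxc, beside 8.51 for all loci tested. A mean of at least 1 FPKM over the 21 libraries was reached by 92 F-box loci, and of at least 10 FPKM by 26.

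The highest levels lay in loci that did not change in any comparison. The largest mean, 887 FPKM, belonged to a locus that merges fbxa-84 with cyn-3, a cyclophilin gene, bath-36 and CELE_Y75B12B.1, so it cannot be assigned to fbxa-84. The next was fbxa-215, a locus of a single gene (WBcel235 chromosome IV, 13665364 to 13666909). Its genotype means were 163 FPKM in mu86, 181 in mg54, 215 in tm5030, 209 in tm5032, 168 in tm6659, 193 in daf-2 and 313 in N2. Below it came CELE_Y59A8B.12/fbxa-106 (143 FPKM), fbxc-43/fbxc-44 (69.0 FPKM), fbxc-50 (58.8 FPKM) and fbxa-107/fbxa-210/fbxa-211 (58.1 FPKM). A slash joins genes that the authors' processing placed in the same locus, and a change there cannot be assigned to one of them. The pathogen response genes fbxa-75 and fbxa-158 did not pass the filter, with at most 0.0524 and 0.0917 CPM in a library.

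**Figure D1:**
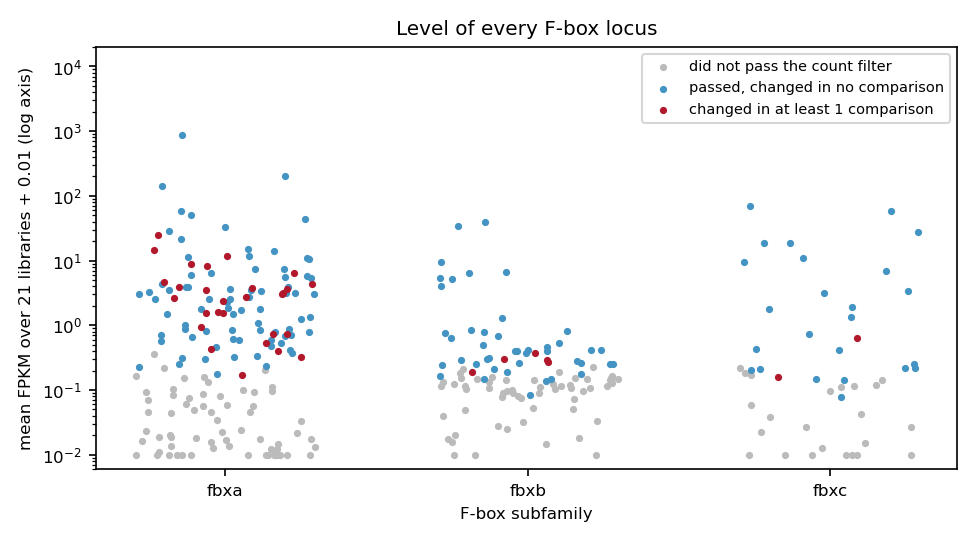
Mean FPKM over the 21 libraries (log axis, with 0.01 added) of each F-box locus, by subfamily. Grey points did not pass the filter on low counts, blue points passed without a change and red points changed in at least 1 of the comparisons. The fbxb loci sit lowest, with a median of 0.376 FPKM among those that passed, and the highest loci are not red.

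The family is clustered on the chromosomes. RefSeq places 118 of the 352 genes on chromosome II, 91 on V and 77 on III, with 27 on IV, 22 on X and 17 on I. Of the fbxb genes, 62 of 110 are on chromosome II, as are 37 of the 50 fbxc genes, while 68 fbxa genes are on III and 75 on V. RefSeq lists 320 of the genes as protein coding and 32 as pseudogenes. A run of 3 neighbouring loci on chromosome II (2409633 to 2420793, WBcel235), named after its values were seen, holds fbxa-182, F42G2.5/fbxa-4 and F42G2.7/fbxc-20, and all 3 were higher in daf-2 than in N2. The fbxa-182 call held only without daf-2 library 3, with adjusted p up to 0.189. A run of 23 loci on the same chromosome (868814 to 1049949) had 14 tested loci, and no call was made in any of the 6 comparisons with a control.

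In daf-2 against N2, 29 of the 180 tested F-box loci changed (16.1%, beside a background of 16.7% of all 12091 loci), so the family as a whole moved about as often as other genes. Among fbxa loci 21 were higher and 1 was lower in daf-2, among fbxb loci none was higher and 5 were lower, and among fbxc loci 2 were higher and none was lower. These are 20.8% of the 106 fbxa loci, 10.4% of the 48 fbxb loci and 7.69% of the 26 fbxc loci, and no test compares the subfamilies. A locus is called changed at an adjusted p under 0.05 (edgeR quasi-likelihood test with Benjamini-Hochberg adjustment over all 12091 loci). Over the family 23 were higher (background 10.9%) and 6 lower (background 5.84%). With upper-quartile scaling the split was 23 higher and 11 lower, with DESeq2 25 and 11, and in a fit of daf-2 and N2 alone 19 and 12.

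The median log2 difference was 0.39 over the fbxa loci that passed, -1.49 over the fbxb loci and -0.34 over the fbxc loci, beside 0.08 over all loci. Of the 106 fbxa loci, 82 had a difference above 0 (77.4%, beside 55.2% of all loci), while 6 of the 48 fbxb loci did. The count filter asks for enough reads in any 3 libraries, so a weak locus could pass through N2 alone or daf-2 alone. Such a locus differs between them by selection, and these loci were not counted, so the medians of weak subfamilies are partly set by the filter. Without N2 library 2 the fbxb median was -1.14, and without all libraries numbered 2 it was -0.88. Leaving out N2 library 2 left 17 changed loci, leaving out daf-2 library 1 left 18 and leaving out daf-2 library 2 left 19. Without all libraries numbered 2 there were 15 higher and 2 lower, and without all libraries numbered 1 there were 9 in all.

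Mutation of more than a single daf-16 isoform in the daf-2 background was read from mu86, described as a null, and mg54, a mutation of the a and f isoforms. Both share their daf-2 control with each other and with the comparison against N2. In mu86 against daf-2, 19 F-box loci changed (10.6%, background 10.3%), with 3 higher (background 4.13%) and 16 lower (background 6.16%). Of the lower loci 15 were fbxa and 1 was fbxc. In mg54 against daf-2, 21 loci changed (11.7%, background 9.35%), with 3 higher (background 3.77%) and 18 lower (background 5.57%). Of these lower loci 17 were fbxa and 1 was fbxc. The median log2 difference of fbxa loci was -0.15 in mu86 and -0.23 in mg54. Without the libraries numbered 2 the calls were 1 higher and 10 lower in mu86, and 1 higher and 12 lower in mg54. Without the libraries numbered 1 there were 6 calls in mu86 and 5 in mg54. In fits of only the groups compared, 11 loci changed in mu86 and 10 in mg54. Between mg54 and mu86 no F-box locus changed (edgeR, background 0.0331%, with 0.00827% higher and 0.0248% lower), with 5 at an unadjusted p under 0.05 and 0 by DESeq2.

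The mutations of single isoforms gave few calls. In tm5030 against daf-2, 1 locus was higher and 2 were lower (1.67%, background 0.91%, with 0.331% higher and 0.579% lower). In tm5032, the other daf-16a mutation, 1 was higher and 2 were lower (1.67%, background 1.04%, with 0.488% higher and 0.554% lower). In tm6659, the daf-16f mutation, no F-box locus changed (edgeR, background 0.174%, with 0.0414% higher and 0.132% lower), with 4 at an unadjusted p under 0.05 and 0 by DESeq2. Between tm5030 and tm5032 none changed either (edgeR, background 0.0248%, with 0.0165% higher and 0.00827% lower), with 1 at an unadjusted p under 0.05 and 0 by DESeq2. The mean of both daf-16a mutations against tm6659 tests the difference between the isoform mutations without the daf-2 libraries, and gave 1 higher and 2 lower (background 2.44%, with 1.17% higher and 1.27% lower). That comparison gave 0 calls without the libraries numbered 1 and 1 without those numbered 2. In tm5030 there was no call without daf-2 library 1, and 1 call without daf-2 library 2 or without any one of the tm5030 libraries. In tm5032 there was no call without daf-2 library 1, daf-2 library 2, tm5032 library 1 or tm5032 library 3, and 1 without daf-2 library 3. Without all libraries numbered 2 there were 0 calls in each of tm5030, tm5032 and tm6659 against daf-2. Fits of only the groups compared gave 0 calls in tm5030 and 0 in tm5032. With upper-quartile scaling there was 1 call in tm5032. DESeq2 made 5 calls in each of tm5030 against daf-2, tm5032 against daf-2 and the daf-16a mean against tm6659.

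**Figure D2:**
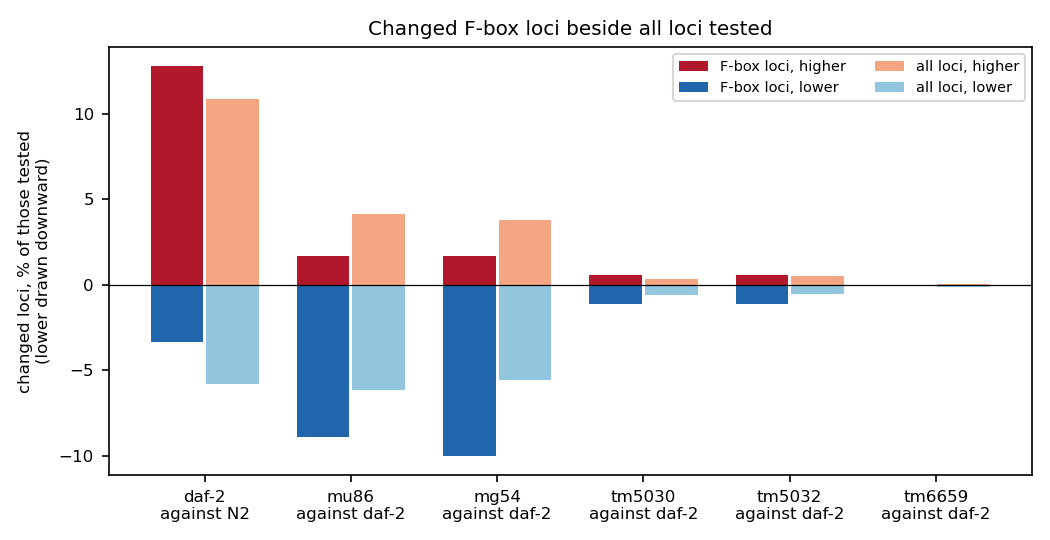
Percent of tested loci that changed in 6 comparisons, for the 180 F-box loci and for all 12091 loci, with lower calls drawn downward. In daf-2 against N2 the F-box share was 16.1% beside 16.7% of all loci, and in tm6659 against daf-2 no F-box locus changed.

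The fbxa gene fbxa-135 (WBcel235 chromosome V, 15402264 to 15404409) followed the genotypes closely. It had 2.49, 2.26 and 1.48 CPM in the daf-2 libraries, against 0.0656, 0.0954 and 0.0519 CPM in N2. It had 0.101, 0.0522 and 0 CPM in mu86 and 0.0635, 0.238 and 0.167 CPM in mg54, against the same daf-2 libraries. It had 0.386, 0.248 and 0.344 CPM in tm5030, 0.467, 0.332 and 0.486 CPM in tm5032 and 2.04, 1.73 and 1.49 CPM in tm6659. The daf-2 and tm6659 libraries were high and overlapped, the daf-16a mutants lay between, and mu86, mg54 and N2 were low. The log2 difference was 4.83 ± 0.55 (SE) in daf-2 against N2 (edgeR adjusted p = 1.38e-05). Against daf-2 it was -5.18 ± 0.57 in mu86 (edgeR adjusted p = 1.27e-05) and -3.71 ± 0.51 in mg54 (edgeR adjusted p = 0.000133).

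Both daf-16a mutants were lower in fbxa-135 as well, with -2.66 ± 0.47 in tm5030 (edgeR adjusted p = 0.00912) and -2.26 ± 0.46 in tm5032 (edgeR adjusted p = 0.0221) on the log2 scale. The tm5030 call was lost without daf-2 library 1 (0.0536) or tm5030 library 2 (0.0599), and the tm5032 call held only without daf-2 library 3, the adjusted p otherwise reaching 0.102. The mean of the daf-16a mutants lay below tm6659 by a log2 difference of -2.22 ± 0.37 (edgeR adjusted p = 0.00289). All 6 daf-16a libraries were below all 3 tm6659 libraries, and this call held without each of the 9 libraries in turn, with an adjusted p from 0.00607 to 0.024. It was lost without all libraries numbered 1 (0.276) or all numbered 2 (0.124). Among the other F-box loci that changed in at least 1 comparison, those with genotype means most like fbxa-135 were fbxa-188 (r = 0.989) and CELE_C08F11.7/fbxa-98 (r = 0.975). This describes 7 genotype means of loci already selected for changing between these genotypes, from the same libraries.

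The merged locus fbxa-185/fbxa-189 (chromosome V, 17331640 to 17347781) spans fbxa-188 (17342791 to 17344926), which lies between its genes on the opposite strand and overlaps neither of them in WBcel235. The merged locus had 11.0, 8.06 and 7.29 CPM in daf-2, against 2.54, 1.37 and 1.5 CPM in N2. It had 2.44, 1.85 and 2.07 CPM in mu86 and 1.81, 1.63 and 2.29 CPM in mg54. It had 3.70, 2.95 and 4.16 CPM in tm5030, 4.33, 2.18 and 3.74 CPM in tm5032 and 9.21, 6.89 and 5.58 CPM in tm6659. Again tm6659 overlapped daf-2, and all other genotypes lay below every daf-2 library. The log2 difference was 2.28 ± 0.30 in daf-2 against N2 (edgeR adjusted p = 6.46e-05), -2.05 ± 0.30 in mu86 against daf-2 (0.000213) and -2.20 ± 0.30 in mg54 against daf-2 (0.00014). It was -1.29 ± 0.29 in tm5030 (edgeR adjusted p = 0.049) and -1.36 ± 0.29 in tm5032 (0.0321) against daf-2. Both of the last calls were lost without any one of the 6 libraries, with adjusted p from 0.0776 to 0.243 in tm5030 and from 0.0544 to 0.18 in tm5032.

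The daf-16a mean was below tm6659 at fbxa-185/fbxa-189, with a log2 difference of -1.04 ± 0.24 (edgeR adjusted p = 0.0281), a call lost without tm5030 library 1 (0.0587), tm5030 library 2 (0.0695), tm6659 library 1 (0.25) or tm6659 library 2 (0.101), and without all libraries of any number (0.644, 0.268 and 0.0798 for 1, 2 and 3). The gene fbxa-188 had 5.80, 5.27 and 4.01 CPM in daf-2, against 1.60, 0.795 and 1.04 CPM in N2. It had 1.31, 1.10 and 1.51 CPM in mu86 and 1.87, 1.46 and 1.90 CPM in mg54. Those 3 genotypes lay below daf-2 with no overlap. The log2 difference was 2.13 ± 0.33 in daf-2 against N2 (edgeR adjusted p = 0.000272), -1.94 ± 0.33 in mu86 against daf-2 (0.000779) and -1.52 ± 0.33 in mg54 against daf-2 (0.00561). No count of fbxa-188 was a whole number in any library, as happens when reads are divided among transcripts.

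F42G2.5/fbxa-4 (chromosome II, 2414123 to 2415531) was at 9.42, 11.8 and 7.65 CPM in daf-2, against 3.17, 2.58 and 2.77 CPM in N2. It was at 4.23, 4.91 and 4.11 CPM in mu86 and 4.19, 3.00 and 3.37 CPM in mg54. The daf-2 libraries stood above all libraries of those 3 genotypes, and tm5030 (8.31, 6.28 and 6.86 CPM), tm5032 (7.18, 6.35 and 7.03 CPM) and tm6659 (8.57, 8.23 and 6.95 CPM) lay higher than they did. The log2 difference was 1.76 ± 0.19 in daf-2 against N2 (edgeR adjusted p = 7.59e-06), -1.12 ± 0.18 in mu86 against daf-2 (0.000567) and -1.45 ± 0.19 in mg54 against daf-2 (6.65e-05). The mu86 call was lost without all libraries numbered 1 (0.0996). The locus CELE_C08F11.7/fbxa-98 (chromosome IV, 13633407 to 13635223) had 7.93, 8.25 and 6.36 CPM in daf-2, against 2.82, 2.07 and 2.57 CPM in N2. It had 2.5, 2.69 and 2.56 CPM in mu86 and 4.06, 2.49 and 3.07 CPM in mg54. These groups did not overlap with daf-2, and the log2 difference was 1.59 ± 0.19 in daf-2 against N2 (edgeR adjusted p = 2.65e-05), -1.54 ± 0.19 in mu86 against daf-2 (4.64e-05) and -1.23 ± 0.19 in mg54 against daf-2 (0.000422). The mg54 call was lost in the fit of only the groups compared.

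The locus fbxa-127/srz-99 (chromosome V, 16728731 to 16729960) joins an F-box gene with srz-99, a gene of the serpentine receptor class. It had 1.49, 1.64 and 1.90 CPM in daf-2, against 0.394, 0.350 and 0.285 CPM in N2, with 0.756, 0.392 and 0.361 CPM in mu86 and 0.508, 0.545 and 0.474 CPM in mg54. The daf-2 libraries lay above those 3 genotypes without overlap. The log2 difference was 2.28 ± 0.29 in daf-2 against N2 (edgeR adjusted p = 4.79e-05), -1.72 ± 0.29 in mu86 against daf-2 (0.000635) and -1.71 ± 0.29 in mg54 against daf-2 (0.000763). The mu86 call was lost in the fit of only the groups compared. On chromosome III, fbxa-26/fbxa-5 (1336695 to 1342522) had 1.34, 1.25 and 1.12 CPM in mu86 and 1.59, 1.8 and 0.697 CPM in mg54, against 4.47, 5.34 and 6.45 CPM in daf-2. The N2 libraries had 2.76, 1.43 and 1.11 CPM, also below every daf-2 library (1.61 ± 0.34 in daf-2 against N2, edgeR adjusted p = 0.00313). It fell in the mutants without overlap, by a log2 difference of -2.13 ± 0.35 in mu86 (edgeR adjusted p = 0.00053) and -1.99 ± 0.35 in mg54 (0.00104). The next locus, fbxa-27 (1342969 to 1344744), had 0.580, 0.862 and 0.263 CPM in mu86 and 0.381, 0.749 and 0.474 CPM in mg54, against 0.939, 1.8 and 3.19 CPM in daf-2. It was lower, with a log2 difference of -1.78 ± 0.45 in mu86 (edgeR adjusted p = 0.0165) and -1.88 ± 0.46 in mg54 (0.0136), with no overlap. This locus was chosen after its values were seen. The mu86 call was lost without daf-2 library 3 (0.106), mu86 library 1 (0.0534) or mu86 library 3 (0.0786), and the mg54 call without daf-2 library 3 (0.0859), mg54 library 1 (0.0717) or mg54 library 3 (0.0586).

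Several loci had almost no reads outside daf-2 and the single-isoform mutants. The fbxc locus fbxc-10/fbxc-12/fbxc-8 (chromosome IV, 905263 to 911196) had 2.21, 0.622 and 1.42 CPM in daf-2, against 0.0219, 0.0954 and 0.0519 CPM in N2 (log2 4.64 ± 0.67, edgeR adjusted p = 0.000135). In mu86 the 3 libraries held 1 count in all, against 146 counts in daf-2, which makes it 158.4-fold lower, with a counting interval of 28.0 to 6297. It had 0.0635, 0.0681 and 0.0557 CPM in mg54, below every daf-2 library (-4.44 ± 0.67, edgeR adjusted p = 0.000318). In the other mutants it had 0.745, 0.606 and 0.662 CPM in tm5030, 0.689, 0.121 and 0.511 CPM in tm5032 and 0.848, 0.891 and 1.02 CPM in tm6659. Each of those 3 genotypes overlapped daf-2, and none was called.

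The pseudogene fbxa-162 on chromosome II had 1.02, 1.47 and 0.572 CPM in daf-2, against 0.0437, 0.0318 and 0.0519 CPM in N2 (log2 4.46 ± 0.74, edgeR adjusted p = 0.000483). It had 0.0504, 0.0261 and 0.131 CPM in mu86, without overlap with daf-2 (-3.87 ± 0.71, edgeR adjusted p = 0.00154). That call was lost without all libraries numbered 1 (0.0623) or all numbered 2 (0.0537). In mg54 fbxa-162 held 2 counts, against 101 in daf-2, a 48.9-fold difference with a counting interval of 13.2 to 409. A pair of genes in a chromosome III cluster had no read in N2. For fbxa-66 (2309792 to 2314035) the libraries held 0.497, 0.491 and 0.392 CPM in daf-2, against 0 in all 3 of N2, at least 17.8-fold higher by a floor of 3 counts over the group. It was 0 in all mg54 libraries, at least 14.8-fold lower than daf-2, and mu86 held 2 counts against 46 in daf-2, 24.9-fold lower with an interval of 6.52 to 212. For fbxa-73 (2253449 to 2254783) there were 0.276, 0.131 and 0.301 CPM in daf-2, and no count in mu86, mg54 or N2. It was at least 9.27-fold higher in daf-2 when set against N2, and at least 8.68-fold lower in mu86 and 7.74-fold lower in mg54 than in daf-2. Both mutant calls of fbxa-73 were lost in the fits of only the groups compared. The single-isoform mutants kept reads at both genes, with 0.291 to 0.469 CPM of fbxa-66 in tm5030 and 0.131 to 0.298 CPM of fbxa-73 in tm6659. Intervals and floors cover counting error only.

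Smaller decreases were found in fbxa-9, fbxa-6, fbxa-113 and fbxa-94/fbxa-95, and some rested on few libraries. The gene fbxa-9 (chromosome III, 2266651 to 2268315) had 0.718, 1.15 and 0.843 CPM in daf-2, against 0.175, 0.191 and 0.285 CPM in N2, all higher (log2 2.04 ± 0.37, edgeR adjusted p = 0.00107). Its call in mu86 against daf-2 (-1.19 ± 0.36, edgeR adjusted p = 0.0414) was lost without daf-2 library 1, 2 or 3 or mu86 library 2 or 3, with adjusted p up to 0.175. The gene fbxa-6 had 2.32, 2.4 and 2.60 CPM in mu86 and 1.62, 2.42 and 2.34 CPM in mg54, against 4.72, 5.17 and 3.77 CPM in daf-2, with no overlap. It was lower, with a log2 difference of -0.90 ± 0.24 in mu86 (edgeR adjusted p = 0.0246) and -1.10 ± 0.25 in mg54 (0.00801). In daf-2 against N2, with 2.38, 1.34 and 1.71 CPM in N2, it was higher by 1.33 ± 0.25 (edgeR adjusted p = 0.00122). The mu86 call held only without daf-2 library 3, with adjusted p up to 0.113, and the mg54 call was lost only without mg54 library 1 (0.0513).

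The gene fbxa-113 (chromosome V, 20203385 to 20204547) had 0.655, 0.522 and 0.329 CPM in mu86 and 0.508, 0.477 and 0.223 CPM in mg54, against 1.52, 1.87 and 0.843 CPM in daf-2. It was lower, with a log2 difference of -1.47 ± 0.39 in mu86 (edgeR adjusted p = 0.0218) and -1.81 ± 0.40 in mg54 (edgeR adjusted p = 0.00759), with no overlap. The mu86 call was lost without daf-2 library 1 (adjusted p = 0.0774), daf-2 library 2 (0.106), mu86 library 2 (0.0676) or mu86 library 3 (0.113). Against N2 (0.853, 0.382 and 0.467 CPM) the daf-2 value was higher by 1.30 ± 0.39 (edgeR adjusted p = 0.0293), but the groups overlapped, and the call was lost without N2 library 2 (0.139), N2 library 3 (0.0957), daf-2 library 1 (0.1) or daf-2 library 2 (0.105). The merged locus fbxa-94/fbxa-95, also chosen after its values were seen, had 9.85, 10.4 and 9.17 CPM in mu86 and 9.27, 12.1 and 9.90 CPM in mg54, against 15.3, 16.5 and 14.5 CPM in daf-2. These did not overlap and gave -0.65 ± 0.15 in mu86 (edgeR adjusted p = 0.00763) and -0.57 ± 0.15 in mg54 (0.0201). The mu86 call was lost without mu86 library 3 (0.0595), and the mg54 call without daf-2 library 1 (0.0799), daf-2 library 2 (0.108), mg54 library 1 (0.101) or mg54 library 3 (0.0747). In mg54 the lower calls also took in fbxa-181, fbxa-118/fbxa-194 and the pseudogene fbxa-203, and in daf-2 against N2 the higher calls also took in fbxa-105, fbxa-69, fbxa-51/fbxa-54, fbxa-29/fbxa-30/fbxa-31/fbxa-32, fbxa-79, fbxa-35/fbxa-37 and fbxa-190, all named after their values were seen. Of these calls, that of fbxa-105 held without each library in turn, with adjusted p up to 0.0286. The others were each lost without at least 1 library, with the highest adjusted p from 0.0554 at fbxa-69 (without daf-2 library 1) to 0.207 at fbxa-118/fbxa-194.

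**Figure D3:**
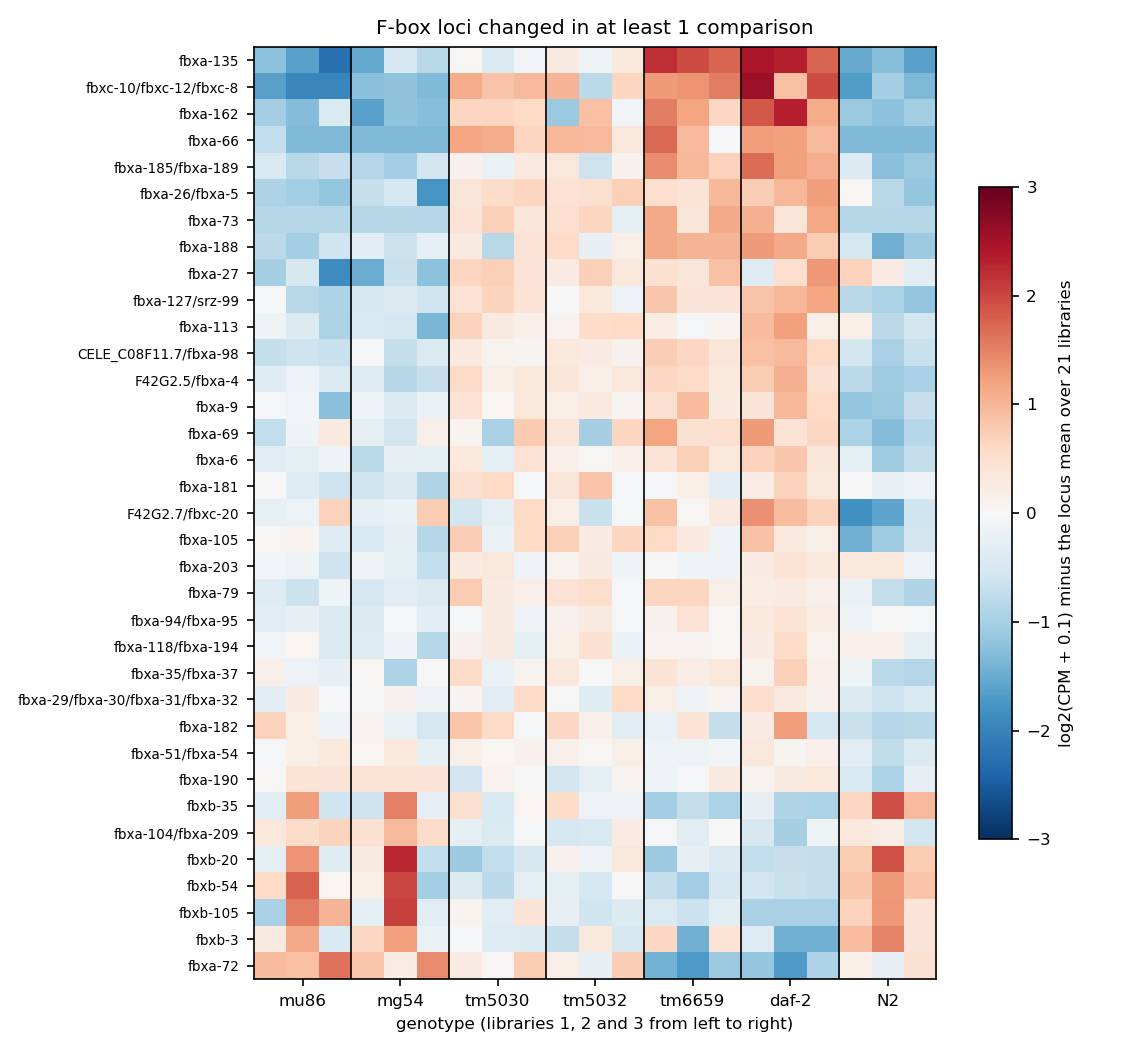
Log2 CPM (with 0.1 added) minus the locus mean for the 35 F-box loci that changed in at least 1 comparison with a control or between isoform mutants, in the 21 libraries grouped by genotype. The rows of fbxa-135, fbxa-185/fbxa-189 and fbxa-188 are high in daf-2 and tm6659 and low in mu86, mg54 and N2, and the fbxa-72 row runs the other way.

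The locus fbxa-72 (chromosome V, 674886 to 676753) ran opposite to those above. It had 37, 36 and 59.4 CPM in mu86, 34.4, 22.5 and 51.3 CPM in mg54, 22.8, 19.6 and 32.3 CPM in tm5030, 21.7, 16.0 and 31.9 CPM in tm5032 and 7.06, 5.74 and 8.97 CPM in tm6659. The daf-2 libraries had 8.51, 5.80 and 10.0 CPM, and the N2 libraries had 21.9, 16.2 and 26.2 CPM. The daf-2 and tm6659 libraries were low and overlapped, while every library of the other 5 genotypes was above them. In daf-2 it was lower than in N2, with a log2 difference of -1.40 ± 0.34 (edgeR adjusted p = 0.00793). Against daf-2 it was higher by 2.44 ± 0.35 in mu86 (edgeR adjusted p = 0.000149) and 2.15 ± 0.34 in mg54 (edgeR adjusted p = 0.000512). The daf-16a mutants were higher by 1.62 ± 0.34 in tm5030 (edgeR adjusted p = 0.0307) and 1.52 ± 0.34 in tm5032 (edgeR adjusted p = 0.0388).

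Both daf-16a calls of fbxa-72 rested on most libraries. The tm5030 call was lost without daf-2 library 1 (0.0899), daf-2 library 2 (0.161), tm5030 library 1 (0.0766) or tm5030 library 3 (0.114), and the tm5032 call held only without tm5032 library 2, with adjusted p up to 0.186. The daf-16a mean against tm6659 gave 1.73 ± 0.31 (edgeR adjusted p = 0.00555), and all 6 daf-16a libraries were above all 3 tm6659 libraries. That call held without each of the 9 libraries, with adjusted p from 0.00365 to 0.0467, and was lost without all libraries numbered 1 (0.454). The merged locus fbxa-104/fbxa-209 (chromosome V, 15421529 to 15427044) had 1.39, 1.62 and 1.77 CPM in mu86 and 1.52, 2.21 and 1.62 CPM in mg54, against 0.746, 0.491 and 0.964 CPM in daf-2. Neither mutant overlapped daf-2, and the differences were 1.11 ± 0.32 in mu86 (edgeR adjusted p = 0.0324) and 1.28 ± 0.32 in mg54 (0.0161). Leaving out daf-2 library 1 or 2 or mu86 library 2 or 3 ended the mu86 call (up to 0.14), and leaving out daf-2 library 2 or mg54 library 2 ended the mg54 call (0.0797 and 0.0642).

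**Figure D4:**
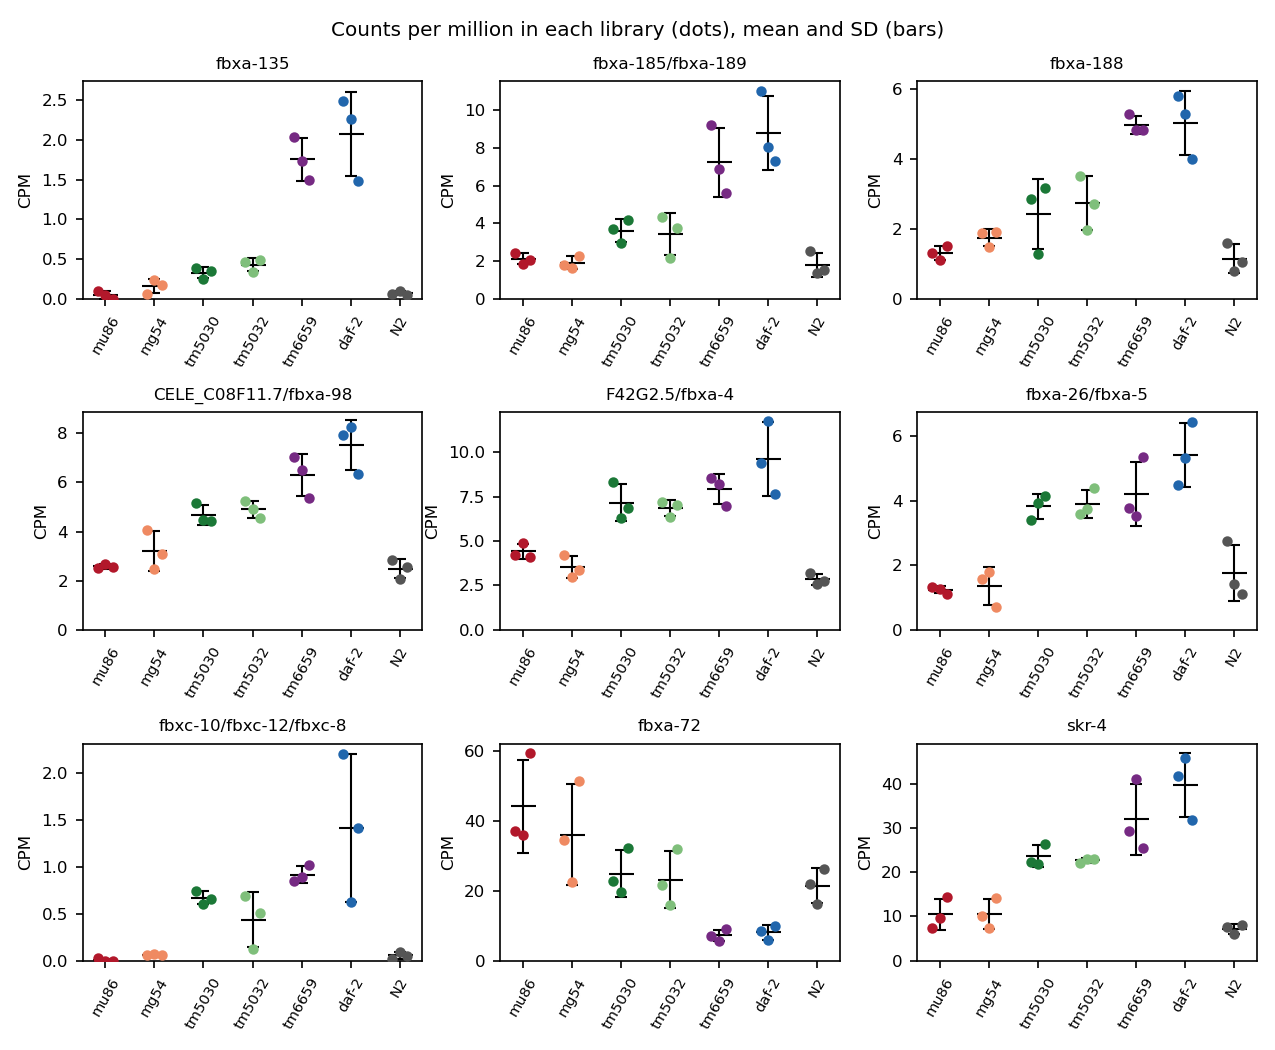
CPM of 8 F-box loci and of skr-4, a Skp1-related adaptor gene, in each library by genotype, with the mean and SD (n = 3). For fbxa-135 the daf-16a mutants tm5030 and tm5032 lie between mu86 and daf-2, while tm6659 lies with daf-2, and fbxa-72 shows the opposite direction.

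The loci lower in mu86 can be described in the daf-16a and daf-16f mutants, which do not share libraries with mu86 or daf-2. Of the 16 loci, 15 were lower in the daf-16a mean than in tm6659 (93.8%, beside 48.2% of all loci), with a median log2 difference of -0.37 beside 0.01 over all loci, and differences from -2.22 to 0.35. Only 2 of the 16 were called. Loci outside the F-box family that were lower in mu86 were not set beside them, so this share does not set F-box loci apart. The same holds for the lists that follow. Of the 18 loci lower in mg54, 14 were lower in the daf-16a mean than in tm6659 (77.8%, median -0.25), and of the 23 loci higher in daf-2 than in N2, 18 were (78.3%, median -0.29), and the lists share loci. Between tm5030 and tm5032, 6 of the 16 lay below 0, beside 49.2% of all loci, with a median of 0.07. As a share of the daf-2 mean, which all groups share as denominator, the median over these 16 loci was 27.4% in mu86, 27.8% in mg54, 69.3% in tm5030, 66.7% in tm5032, 84.2% in tm6659 and 23.4% in N2. The loci were selected as lower in mu86 than in daf-2 in these same libraries, so the low mu86 share is set by the selection. The selection also favours high daf-2 values, which lowers the other shares, so their order was not tested. Across the fbxa loci that passed, the mean log2 CPM was 1.17 ± 0.04 in mu86, 1.07 ± 0.09 in mg54, 1.32 ± 0.16 in tm5030, 1.27 ± 0.12 in tm5032, 1.36 ± 0.08 in tm6659, 1.47 ± 0.05 in daf-2 and 0.85 ± 0.10 in N2 (SD, n = 3).

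Of the 48 fbxb loci tested, 5 were lower in daf-2 than in N2, at very low levels, and none was higher. They were fbxb-105, fbxb-35, fbxb-3, fbxb-20 and fbxb-54. The gene fbxb-54 (chromosome II, 1555213 to 1556317), had 0.110, 0.0982 and 0.0904 CPM in daf-2, against 0.459, 0.668 and 0.467 CPM in N2 (log2 -2.37 ± 0.78, edgeR adjusted p = 0.0469). These did not overlap, but the call was lost without any one of the 6 libraries (adjusted p from 0.0601 to 0.134). For fbxb-20 (chromosome II, 1649138 to 1650602) daf-2 held 3 counts, against 44 in N2, a 12.7-fold difference with an interval of 4.06 to 63.8. That call held only without N2 library 3, with adjusted p up to 0.171.

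The gene fbxb-105 (chromosome II, 2769509 to 2770888) had no count in daf-2, against 0.219, 0.382 and 0.156 CPM in N2, at least 8.06-fold lower. It had 0, 0.470 and 0.296 CPM in mu86 and 0.0635, 0.715 and 0.0557 CPM in mg54, at least 8.30-fold and 8.61-fold higher than the daf-2 libraries. Library 2 was the highest in both mutants and mu86 library 1 had no count, as in daf-2. Without library 2 the adjusted p was 0.136 in mu86 and 0.203 in mg54, and 0.0809 in daf-2 against N2 without N2 library 2. Leaving out daf-2 library 1, 2 or 3 also ended all 3 calls, with adjusted p from 0.0568 to 0.101, as did leaving out N2 library 1 (0.0521) or mu86 library 3 (0.0802) in their own comparisons. The genes fbxb-35 and fbxb-3 were lower in daf-2 without overlap, with log2 differences of -3.02 ± 0.92 (edgeR adjusted p = 0.0312) and -3.40 ± 1.10 (edgeR adjusted p = 0.0435). Without N2 library 2 these adjusted p were 0.14 and 0.138. The fbxb-35 call was also lost without daf-2 library 2 (adjusted p = 0.0801) or 3 (0.102), and the fbxb-3 call without N2 library 1 (0.0811) or daf-2 library 2 (0.0993) or 3 (0.129).

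The libraries numbered 2 set much of the fbxb pattern. The mean log2 CPM over the fbxb loci in libraries 1, 2 and 3 was -0.99, 0.14 and -1.54 in mu86, -1.29, 0.64 and -1.60 in mg54, -1.16, -1.63 and -1.30 in daf-2 and -0.38, 0.32 and -0.67 in N2. Of the 48 fbxb loci, 30 in mu86 (62.5%), 38 in mg54 (79.2%) and 19 in N2 (39.6%) were at least 2-fold higher in library 2 than in the mean of the other libraries of the genotype. The same count was 1 in tm5030, 2 in tm5032, 5 in tm6659 and 2 in daf-2. In both mu86 and mg54 library 2 was this high at 29 of 48 fbxb loci (60.4%), 7 of 26 fbxc loci and 1 of 106 fbxa loci, beside 1.17% of all 12091 loci. A weak fbxb locus could pass the count filter through library 2 of mu86, mg54 and N2 alone, since any 3 libraries suffice. Such loci are high in library 2 by selection and were not counted. The filter may thus partly set these fbxb counts and means, and the counts cannot rank the subfamilies. The fbxb median log2 difference against daf-2 was 0.86 in mu86 and 1.43 in mg54, and 41 of 48 loci lay above 0 in each, while fbxb-105 alone was called. Without mg54 library 2 the median in mg54 was -0.19 and 20 of 48 loci lay above 0, and without mu86 library 2 the median in mu86 was 0.26 with 30 of 48 above 0. Without all libraries numbered 2 the medians were -0.25 in mg54 and 0.07 in mu86.

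Embryonic marker genes were highest in library 2 of every genotype except mu86, also where fbxb genes were not raised in library 2. Summed CPM of 12 embryonic genes in libraries 1, 2 and 3 was 200, 196 and 157.9 in mu86, 187.8, 230 and 168 in mg54, 175, 211 and 190 in daf-2 and 226, 242 and 212 in N2. For the 24 sperm genes it was 792, 1228 and 2228 in mu86 and 1068, 696 and 2058 in mg54, and the part of both lists in the fbxb values was not tested. Of the 12 embryonic genes, 0 to 4 had no count in a library. The median SD of log2 CPM within a genotype was 0.884 for fbxb loci, 0.352 for fbxa loci and 0.580 for fbxc loci, beside 0.310 for all loci tested.

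**Figure D5:**
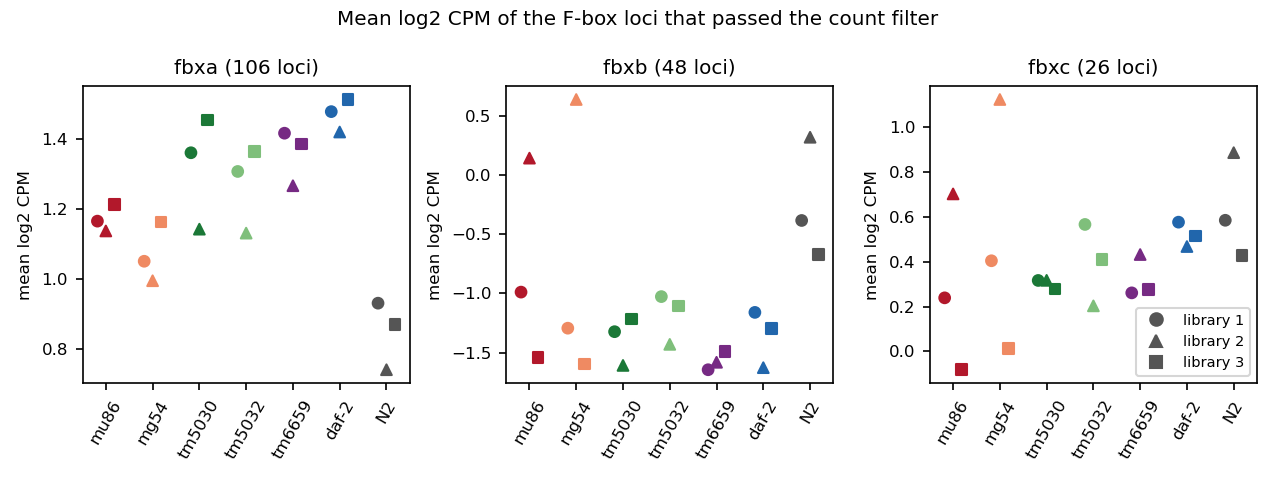
Mean log2 CPM of the fbxa, fbxb and fbxc loci that passed the filter, in each library by genotype, with circles, triangles and squares for libraries 1, 2 and 3. The fbxa genotype means lie at 1.47 in daf-2 and 0.85 in N2, and the fbxb triangles of mg54 (0.64) and mu86 (0.14) lie far above the other libraries of their genotypes.

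Genes for partners of F-box proteins were counted from lists, to be read beside the shares of all loci called, which were 16.7% in daf-2 against N2, 10.3% in mu86 and 9.35% in mg54. Of 27 tested loci of the SCF core and the neddylation machinery that activates cullins, 2 were higher and 3 lower in daf-2 than in N2, 1 was lower in mu86 than in daf-2 and 2 were lower in mg54. The 3 lower in daf-2 were merged loci that hold ula-1, skr-18 or cand-1 beside other genes. Among the Skp1-related adaptor genes, skr-4 had 41.7, 45.8 and 31.7 CPM in daf-2, against 7.54, 5.98 and 8.14 CPM in N2 (log2 2.46 ± 0.26, edgeR adjusted p = 7.76e-06). It had 7.38, 9.66 and 14.3 CPM in mu86 and 10.1, 7.46 and 14.1 CPM in mg54, against the daf-2 libraries, with no overlap. The differences were -1.93 ± 0.26 in mu86 (edgeR adjusted p = 8.85e-05) and -1.91 ± 0.26 in mg54 (0.000106). Both calls were lost without all libraries numbered 1 (0.0656 in mu86 and 0.0553 in mg54). The daf-16a mutants lay between at 22.3, 21.9 and 26.4 CPM in tm5030 and 22, 22.9 and 23.0 CPM in tm5032, beside 29.3, 41 and 25.5 CPM in tm6659, and their mean did not pass against tm6659 (-0.47, edgeR adjusted p = 0.394). Its relative skr-5 rose in daf-2 against N2 (3.31 ± 0.90, edgeR adjusted p = 0.0173) and fell in mg54 against daf-2 (-3.19 ± 0.91, 0.0348), while mu86 did not pass (-2.40, 0.0872). The first skr-5 call was lost without N2 library 1 (0.0834), N2 library 2 (0.0694) or daf-2 library 1 (0.0958), and the mg54 call without daf-2 library 1 (0.168) or 3 (0.0526) or mg54 library 1 (0.12) or 3 (0.0938). The values for skr-3 (log2 0.36, adjusted p = 0.0706) and cul-6 (log2 -0.03, adjusted p = 0.942) in daf-2 against N2 did not pass.

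The same shares of all loci (16.7%, 10.3% and 9.35%) stand beside the next lists, which hold few loci. Of 9 tested loci of F-box genes outside the fbxa, fbxb and fbxc families, 1 was higher and 2 lower in daf-2 than in N2, and 1 was higher in mu86 and in mg54 than in daf-2. Of the 2 lower loci, 1 merges fsn-1 with mrps-18C, ntl-9 and rpb-2. The higher gene in daf-2 was mfb-1 (log2 0.78 ± 0.21, edgeR adjusted p = 0.0163), a call lost without N2 library 1 (0.0508) or 2 (0.092) or daf-2 library 1 (0.0615) or 3 (0.0715). The gene dre-1, which encodes an F-box protein of developmental timing, was lower in daf-2 than in N2 (-0.49 ± 0.10, edgeR adjusted p = 0.00309). It was higher than daf-2 in mu86 (0.50 ± 0.10, edgeR adjusted p = 0.00392) and mg54 (0.48 ± 0.10, 0.00613), and higher in the daf-16a mean than in tm6659 (0.43 ± 0.09, 0.0156). The last call was lost without tm6659 library 1 (0.0888) or 2 (0.0557). Without all libraries numbered 1 every dre-1 call was lost (edgeR adjusted p = 0.123 against N2, 0.221 in mu86, 0.24 in mg54 and 0.948 in the daf-16a mean). Without all numbered 2 those in mu86 (0.0763), mg54 (0.0672) and the daf-16a mean (0.126) were lost. Fits of only the groups compared lost the same calls (0.0692, 0.103 and 0.143 in that order). Of 6 loci of the COP9 signalosome, which removes the ubiquitin-like protein NEDD8 from cullins, 1 was lower in each of daf-2 against N2, mu86 against daf-2 and mg54 against daf-2. The locus lower in daf-2 merges csn-4 with cct-8, so the change cannot be assigned to csn-4. In the mutants the lower locus was csn-1, with a log2 difference of -0.43 ± 0.10 in mu86 (edgeR adjusted p = 0.00922) and -0.39 ± 0.10 in mg54 (0.0191). The mu86 call was lost without mu86 library 3 (0.0992), and the mg54 call held only without mg54 library 2, with adjusted p up to 0.0987. The list of the intracellular pathogen response holds 14 genes, of which 10 were found among the loci, and only 5 loci were tested. Those were sdz-6 and the loci of skr-3, skr-4, skr-5 and cul-6, which the SCF list also holds. Of these 5 loci, 2 were higher and 1 lower in daf-2 than in N2. Against daf-2, mu86 had 1 higher and 1 lower, and mg54 had 1 higher and 2 lower. Among them sdz-6 was lower in daf-2 than in N2 (-3.67 ± 0.51, edgeR adjusted p = 9.68e-05), higher than daf-2 in mu86 (4.13 ± 0.51, 4.1e-05) and mg54 (4.30 ± 0.51, 3.09e-05), and higher in the daf-16a mean than in tm6659 (2.08 ± 0.48, 0.027). The last call was lost without tm5030 library 2 (0.0537) or any one of the tm6659 libraries (up to 0.143), and DESeq2 gave 0.0747. In tm5030, tm5032 and tm6659 against daf-2 no locus of these 4 lists changed.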

How the data were processed

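Poly(A) RNA of whole day 1 adults was read in 21 libraries, 3 of each of 7 genotypes. The authors used CASAVA 1.8.2, TopHat2 2.0.9 and Cufflinks 2.1.1, per the submitters' processing notes, with a genome build not given in the sources used here. For each of 33886 loci the authors deposited an expected count and an FPKM value per library. Some loci merge several genes, and some counts carry fractions. Of the F-box counts 85.4% are whole numbers (tolerance 1e-09), and 60 of the 325 F-box loci hold more than 1 gene. The library kit does not mark strand.

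Expected counts were rounded and tested with edgeR 4.0.16 in R 4.3.3, using a quasi-likelihood fit of all 21 libraries, TMM scaling and filterByExpr, with Benjamini-Hochberg adjustment over the 12091 loci that passed, 2-sided. The 300 unnamed loci (1.06% to 1.54% of counts) and 3 entries that are not loci were left out. CPM uses the scaled library sizes, log2 CPM a prior count of 2. FPKM served only to describe levels. Intervals are at 95%. The fit was also run on simulated counts drawn from the means and spread of the main fit, and no result here rests on that run. Figures used matplotlib 3.10.9, and tables pandas 2.3.3 and SciPy 1.17.1 in Python 3.11.15.

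The labels do not say that replicates are separate cultures, so p-values measure only the spread between these libraries. The members and lists were chosen with earlier results of these data known. Values are given for called loci with the smallest adjusted p (up to 10 per direction for daf-2 against N2 and mu86 against daf-2, up to 5 otherwise), loci called in at least 3 of 6 comparisons with a control, the 6 loci of highest FPKM, the 2 called loci most like the leading locus, fbxa-75 and fbxa-158. Loci outside this rule are named as chosen after their values were seen. Alternatives were RLE and upper-quartile scaling, DESeq2 1.42.0, no filter, fits of only the groups compared, a replicate block and leaving out each library. Leaving out all libraries of a number was added after seeing the data, as were all alternatives for subfamily medians and for loci and partner genes outside the rule. Positions are those of Ensembl 115 (WBcel235), matched by name for 313 of the 352 genes, and chromosomes and gene types those of RefSeq for all 352. Sequences were not used here.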

Additional observations from a re-analysis of the deposited data

Results flagged for a closer look

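The mutations of the daf-16a isoform and the mutation of the daf-16f isoform differed at 3 F-box loci, each by the edgeR test of the difference between them. That is 1.67% of the F-box loci tested, below the 2.44% of all loci. The mean of tm5030 and tm5032 differed from tm6659 by a log2 difference of -2.22 at fbxa-135, -1.04 at fbxa-185/fbxa-189 and 1.73 at fbxa-72. All 6 daf-16a libraries lay on one side of all 3 tm6659 libraries at each of these loci. The calls were lost without all libraries numbered 1 (adjusted p 0.276, 0.644 and 0.454 in the same order), and that of fbxa-135 also without those numbered 2 (0.124). That of fbxa-185/fbxa-189 was also lost without all libraries numbered 2 or all numbered 3. Leaving out tm5030 library 1 or 2 or tm6659 library 1 or 2 ended it as well (0.0587 to 0.25).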

How the results depend on the processing

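The median log2 difference of fbxb loci in mg54 against daf-2 reversed to -0.19 without mg54 library 2 and to -0.25 without all libraries numbered 2 (range over left-out libraries -0.25 to 2.1), and no called locus reversed under an alternative. With the replicate block the changed F-box loci numbered 62 in daf-2 against N2, 32 in mu86, 37 in mg54, 7 in tm5030 and 7 in tm5032 against daf-2, and 6 in the daf-16a mean against tm6659. The shares of all loci called under the block and the other alternatives are not given here. Counts under an alternative therefore have no background, and cannot be set beside the shares of the main fit. The replicate numbers were not taken to pair the libraries, since same-number correlations of deviations ran from -0.315 to 0.89 (63 pairs). Their median was however 0.494, beside -0.152 for pairs of different numbers, and 18 of 21 libraries correlated best with their own number. Summed CPM of the sperm genes was also highest in library 3 of every genotype. Libraries of the same number were thus mostly more alike, which the main fit leaves out. Whether the main fit or the block gives the better calls was not tested. Fits of only the groups compared gave 11 in mu86, 10 in mg54, 0 in tm5030 and 0 in tm5032. DESeq2 gave 5 in tm5030, 5 in tm5032 and 5 in the daf-16a mean against tm6659, and upper-quartile scaling gave 1 in tm5032. Leaving out libraries, singly or by number, gave 9 to 24 in daf-2 against N2, 6 to 17 in mu86, 5 to 20 in mg54, 0 to 2 in tm5030, 0 to 2 in tm5032 and 0 to 4 in the daf-16a mean against tm6659. The comparisons of tm6659 with daf-2, mg54 with mu86 and tm5030 with tm5032 stayed at 0 under all of these. For the calls of all changed F-box loci, 868 values kept their direction and their side of the threshold and 311 kept only the direction. For called partner genes these numbers were 249 and 72. Of the F-box calls, 58 were lost and 20 kept without all libraries numbered 1. Without those numbered 2, 38 were lost and 40 kept, and without those numbered 3, 24 were lost and 54 kept. Fits of only the groups compared lost 34 and kept 44. Where a locus holds only a few counts in a library, as the named fbxb genes do, a difference that was not called may still exist.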
